A study of Mus musculus with 6 samples.

Results

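The nuclear receptor family was examined in a mouse acute myeloid leukaemia line, PU.1low URE-/-, after exposure to DB2313, a small molecule that the submitters describe as a PU.1 inhibitor. The family was taken as 46 named genes, and a gene was read from its row annotated with that symbol alone, the brightest such row where there were several. This gave values for 44 of the 46 genes, out of 22180 genes in all. Nr1h2 and Nr2e3 had no row with 1 symbol and are not analysed here. In all, 6 arrays were compared, 3 from cells given DB2313 at 330 nM for 24 h and 3 from cells given the same volume of water for 24 h (vehicle). All cells of both groups came from 1 line, started from 1 leukaemic mouse that lacked the URE, an upstream enhancer of the PU.1 gene Spi1, so both groups carried that deletion and low PU.1. Both were grown with 10% serum and with supernatants of WEHI and BHK cells at 15% each. The labels call the arrays biological replicates without saying whether the cultures were started separately. The p-values here set each difference against the spread within the groups of these 6 samples, moderated over all genes. They may therefore not extend to newly started cultures.

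Nuclear receptors are transcription factors with a zinc-finger DNA-binding domain and a pocket for a small lipophilic ligand such as a steroid, a retinoid, a thyroid hormone or a fatty acid. Steroid receptors mostly bind DNA as homodimers, whereas the receptors for fatty acids, oxysterols, retinoic acid, thyroid hormone and vitamin D pair with a retinoid X receptor (RXR). Orphan members have no settled physiological ligand. In myeloid cells the retinoic acid receptor RARA steers granulocyte maturation, the glucocorticoid receptor restrains inflammatory genes, and PPARG, known mainly as the master regulator of fat cells, governs lipid handling in macrophages.

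Pparg stood apart from its family. With DB2313 it fell to 4.37, 4.58 and 4.49 on the 3 arrays, against 6.19, 6.55 and 6.50 with vehicle (log2 signal), and the groups did not overlap. The log2 difference of DB2313 minus vehicle was -1.94 (SE 0.108, 95% confidence interval -2.19 to -1.69, limma adjusted p = 0.000449). The DB2313 mean of 4.48 was below a dim level of 4.89 set from genes that blood cells are not known to use (defined after the sequences), so the fold is given as a bound. By the vehicle mean against that level, with no allowance for spread between arrays, Pparg was at least 2.88-fold lower. It was the single member past an adjusted p of 0.05, that is 1 of 44, where 1.81% of all genes passed. A share of 2.27% is near that background and says nothing about the family as a group. After 32 was added to each linear signal, an offset that damps dim rows, the log2 difference was -1.11 (adjusted p = 0.000483), and its place among the lowest differences of all genes was 10, against 3 without the offset. As in any bulk sample, fewer cells carrying a transcript and less transcript per cell cannot be told apart.

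RefSeq lists 3 start sites for Pparg, and the windows from 250 bases before to 50 bases after each are shown because ETS factors such as PU.1 bind a GGAA core. They are on chromosome 6 of GRCm38.p6, printed 5′ to 3′ along the gene's strand, with each GGAA (or TTCC, the same core on the other strand) in capitals. The arrays do not say which start site was in use.
Pparg window chr6:115360894-115361193 (+): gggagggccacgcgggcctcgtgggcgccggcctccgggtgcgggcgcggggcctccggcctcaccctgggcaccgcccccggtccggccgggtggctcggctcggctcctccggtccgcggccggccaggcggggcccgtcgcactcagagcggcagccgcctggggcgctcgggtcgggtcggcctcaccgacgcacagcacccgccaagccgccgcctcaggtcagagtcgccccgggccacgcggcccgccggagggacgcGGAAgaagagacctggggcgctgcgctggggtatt
Pparg window chr6:115362099-115362398 (+): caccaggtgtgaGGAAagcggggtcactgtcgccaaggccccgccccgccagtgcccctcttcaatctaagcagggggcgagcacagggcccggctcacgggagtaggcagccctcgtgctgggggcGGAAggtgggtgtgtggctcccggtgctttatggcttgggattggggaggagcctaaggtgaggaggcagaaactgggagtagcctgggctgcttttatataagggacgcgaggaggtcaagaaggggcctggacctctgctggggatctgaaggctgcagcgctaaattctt
Pparg window chr6:115421816-115422115 (+): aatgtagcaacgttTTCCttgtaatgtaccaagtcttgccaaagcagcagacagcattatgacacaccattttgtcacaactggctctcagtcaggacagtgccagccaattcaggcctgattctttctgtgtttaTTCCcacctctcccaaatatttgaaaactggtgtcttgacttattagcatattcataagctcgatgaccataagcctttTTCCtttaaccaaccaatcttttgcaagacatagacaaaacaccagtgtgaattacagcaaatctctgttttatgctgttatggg

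The windows held 1, 2 and 3 such cores in the order printed, against 1 in the window of Ppara and 3 in that of Ppard. The core is common, being found on either strand in 96.0% of 32851 RefSeq windows of the same length. The longer PU.1-type site GAGGAAGT was in none of these 5 windows, and on either strand in 3.20% of all windows. Among 63 windows of the 42 receptor genes in the table it was in 1, that of Nr1d2. The nuclear receptor half-site AGGTCA was found once in each of the first and second windows of Pparg, and in 19.0% of the family's windows against 16.3% of all windows. Its direct repeat with 1 spacer base (AGGTCA, any base N, AGGTCA), which PPAR-RXR pairs are known to bind, was in 0 windows of the family and 13 of all windows. These matches are letters in fixed windows, with no measurement of binding.

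Which receptors the line expresses can be described only against a dim level, since no detection calls were used here. As that level the 0.95 quantile was taken over 1500 genes of olfactory, vomeronasal, trace amine and taste receptor and keratin-associated protein families, which blood cells are not known to use. It lay at 4.89 in the DB2313 group and 4.90 in the vehicle group (log2 signal, mean of 3 arrays per gene), and the 0.99 quantile at 6.17 and 6.14. By this measure 27 of 44 receptors were above the level with DB2313 and 28 with vehicle, 61.4% and 63.6%, beside 55.0% and 54.8% of all genes. Above the 0.99 quantile there were 17 with DB2313 and 18 with vehicle. Probe sets differ in response, so a row below the level does not show that a gene is silent, and levels of different genes are not ranked. Ptprc, a gene of all leukocytes, had 3.31 with DB2313 and 3.32 with vehicle, below the level.

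A set of 17 receptors was above the 0.99 quantile in both groups. They were Ppard, Rxra, Rxrb, Rara, Rarg, Thra, Esr1, Esrra, Nr1d1, Nr1d2, Rorb, Nr1h3, Nr2c1, Nr2c2, Nr2f6, Nr3c1 and Nr4a2. A further 9, among them the vitamin D receptor Vdr and the clock activator Rora, lay between both quantiles in each group. The 15 below the 0.95 quantile in both groups included Ppara, Rxrg, Rarb, Thrb, the progesterone receptor Pgr, the bile acid receptor Nr1h4 and the xenobiotic receptors Nr1i2 and Nr1i3. Pparg alone was above the 0.99 quantile with vehicle and below the 0.95 quantile with DB2313. Its DB2313 mean of 4.48 exceeded 92.4% of the 1500 sensory and hair-family genes, and its vehicle mean of 6.42 exceeded 99.4%. Nr5a1 had 4.87 with DB2313 and 4.91 with vehicle, and Nr4a1 had 5.01 with DB2313 and 4.83 with vehicle, so these 2 also lay on opposite sides of the 0.95 quantile.

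**Figure D1:**
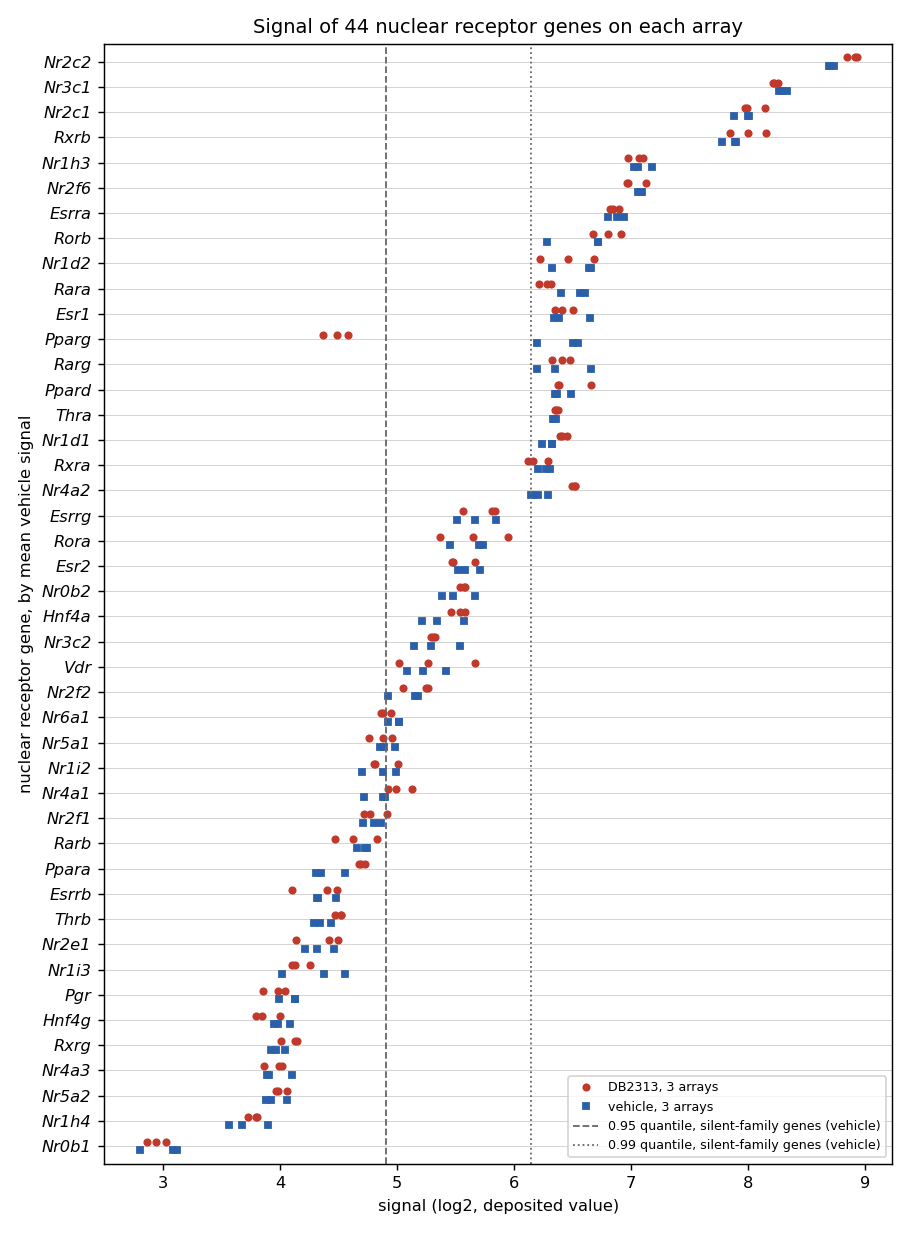
Signal of the 44 nuclear receptor genes (x axis, deposited log2 value) on each array, 1 row per gene ordered by the vehicle mean, with DB2313 arrays as red circles and vehicle arrays as blue squares. The dashed and dotted lines are the 0.95 and 0.99 quantiles of the 1500 sensory and hair-family genes in vehicle cells (4.90 and 6.14), and Pparg is the gene whose DB2313 and vehicle points lie on either side of both.

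Neither of the other PPAR genes passed the test. Ppara, the receptor of liver fatty acid oxidation, had 4.72, 4.69 and 4.67 with DB2313, against 4.31, 4.35 and 4.56 with vehicle. All 3 DB2313 values were above the vehicle values, but both groups were below the dim level and the difference of 0.29 did not pass (interval 0.11 to 0.47, limma adjusted p = 0.160). Ppard, the broadly expressed member that also binds fatty acids, had 6.38, 6.37 and 6.66 with DB2313, against 6.36, 6.35 and 6.49 with vehicle. These groups overlapped, with a difference of 0.07 (interval -0.14 to 0.29, adjusted p = 0.820).

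The RXR genes, whose products are the obligate partners of PPARs, gave no difference past the test. Rxra had 6.12, 6.16 and 6.29 with DB2313, against 6.21, 6.30 and 6.27 with vehicle. Rxrb had 7.85, 8.16 and 8.00 with DB2313, against 7.90, 7.78 and 7.89 with vehicle. In both genes the groups overlapped, and the log2 differences were -0.07 for Rxra (interval -0.23 to 0.09) and 0.15 for Rxrb (interval -0.06 to 0.35). Rxrg, a form known mainly from muscle and brain, was below the dim level at 4.12, 4.14 and 4.01 with DB2313, against 3.97, 4.04 and 3.92 with vehicle. Its difference was 0.11 (interval -0.04 to 0.27).

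**Figure D2:**
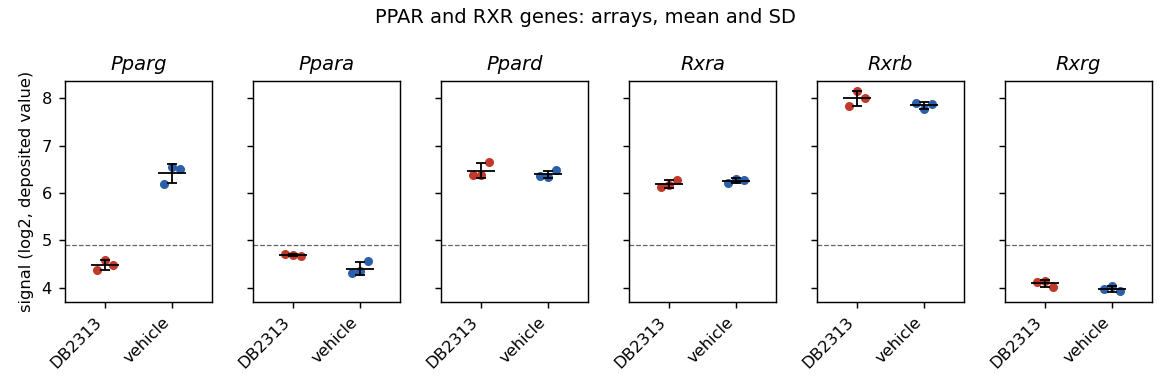
Log2 signal (y axis) of the 3 PPAR and 3 RXR genes on each array, DB2313 left and vehicle right in each panel, with the mean as a bar and the SD as whiskers (n = 3). The dashed line is the 0.95 quantile of the sensory and hair-family genes in vehicle cells, 4.90. Pparg at 4.48 and 6.42 is the gene of the 6 whose groups lie on opposite sides of it.

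Among all 43 other receptors the log2 differences ran from -0.25 to 0.30, and 28 were smaller than 0.1 in size. Their 95% confidence intervals lay between -0.47 and 0.52, so none reached the interval of Pparg. For 42 of the 43 the interval was within 0.5 of zero, the exception being Rorb. The lowest adjusted p among them was 0.0766. The median log2 difference over the 44 receptors was 0.01, beside -0.0024 over all genes, and 24 were above 0 and 20 below. Groups did not overlap for 9 receptors, 6 above and 3 below, which is 20.5% where 19.3% of all genes did so. At an unadjusted p of 0.05 there were 6 of 44 receptors, 13.6%, beside 12.7% of all genes.

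**Figure D3:**
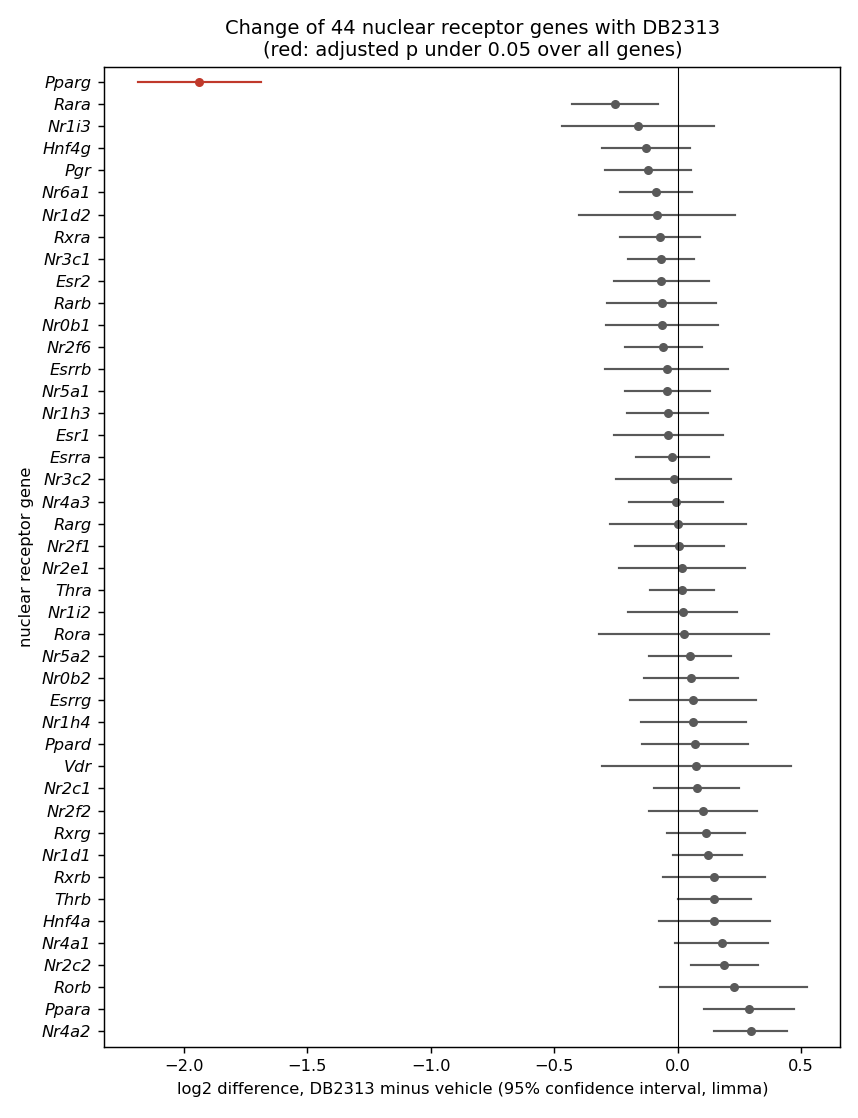
Log2 difference of DB2313 minus vehicle (x axis) for the 44 nuclear receptor genes, ordered from lowest to highest, each with its 95% confidence interval from limma. Pparg, in red, is at -1.94, and the other 43 intervals lie between -0.47 and 0.52.

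Other than Pparg, 4 receptors that were higher and 1 that was lower had an unadjusted p under 0.05 without passing the adjusted threshold. Nr4a2, an orphan receptor of the NR4A group that is induced rapidly by signals, had 6.52, 6.52 and 6.49 with DB2313, against 6.21, 6.15 and 6.29 with vehicle. Its DB2313 arrays lay entirely above the vehicle arrays and close together, with a difference of 0.30 (SE 0.0631, limma adjusted p = 0.0766). Nr4a2 passed where genes of low signal were left out (0.0434 below the 0.25 quantile, 0.0164 below the median), with the offset of 32 (0.0183) and with a trended prior (0.0469). It did not pass in any fit with 1 array left out (0.105 to 0.228). Its relative Nr4a1 had a difference of 0.18 (adjusted p = 0.423), and Nr4a3 had -0.0073.

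Nr2c2, the orphan testicular receptor TR4, had 8.91, 8.84 and 8.93 with DB2313, against 8.70, 8.73 and 8.69 with vehicle. The groups did not overlap, with a difference of 0.19 (interval 0.05 to 0.32, adjusted p = 0.224), and it passed with the offset of 32 (0.0303) and with a trended prior (0.0346). Nr2c2 did not pass in any fit with 1 array left out (0.332 to 0.448). Nr2c1, encoding its partner TR2, had 8.15, 7.99 and 7.97 with DB2313, against 8.00, 8.00 and 7.88 with vehicle, and these overlapped. Rara, the retinoic acid receptor found in the fusion protein of promyelocytic leukaemia, had 6.31, 6.28 and 6.21 with DB2313, against 6.40, 6.61 and 6.56 with vehicle. It was the lowest difference after Pparg, at -0.25 (interval -0.43 to -0.08, adjusted p = 0.199), with no overlap. Thrb, a thyroid hormone receptor below the dim level here, had 4.52, 4.47 and 4.52 with DB2313, against 4.29, 4.43 and 4.34 with vehicle, a difference of 0.15 (adjusted p = 0.393).

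The remaining receptors among the 10 rows of highest mean signal did not pass the test. Nr3c1, the glucocorticoid receptor, had 8.22, 8.25 and 8.21 with DB2313, against 8.33, 8.27 and 8.30 with vehicle. Its DB2313 arrays were all just below the vehicle arrays, by -0.07 on average (interval -0.20 to 0.06). Nr1h3, the oxysterol receptor LXR alpha, had 6.97, 7.10 and 7.07 with DB2313, against 7.18, 7.05 and 7.02 with vehicle. Nr2f6, an orphan relative of the COUP factors, had 6.97, 6.96 and 7.12 with DB2313, against 7.08, 7.09 and 7.06 with vehicle. Both overlapped, and their intervals ran from -0.20 to 0.12 and from -0.21 to 0.10.

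Esrra, an orphan receptor of mitochondrial gene programmes, had 6.90, 6.85 and 6.82 with DB2313, against 6.88, 6.81 and 6.94 with vehicle. Esr1, the oestrogen receptor alpha, had 6.50, 6.35 and 6.41 with DB2313, against 6.38, 6.65 and 6.34 with vehicle. Neither separated the groups, and the intervals were -0.17 to 0.13 for Esrra and -0.26 to 0.18 for Esr1. Nr1d2, the clock repressor REV-ERB beta, had 6.46, 6.22 and 6.68 with DB2313, against 6.64, 6.65 and 6.32 with vehicle. Rorb, an orphan receptor known from neurons and retina, had 6.80, 6.92 and 6.68 with DB2313, against 6.71, 6.72 and 6.28 with vehicle. Its interval, -0.07 to 0.52, was the one reaching highest in the family. The 26 receptors not given array by array had differences between -0.16 and 0.18, 19 of them under 0.1 in size, and adjusted p of at least 0.423. Nr3c2, the mineralocorticoid receptor, had 2 rows, with differences of -0.02 in the row used and 0.05 in the dimmer one.

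Genes through which PPARs act were read from a list of 40 reported targets, of which 34 were measured. Me1, Lpl, Plin2 and Fabp5 fell, Olr1 rose, and 29 did not pass, with a list median of -0.05 on the log2 difference scale. Over all genes, 1.02% passed as higher and 0.789% as lower, 1.81% in all, beside 14.7% of this list. This list and those below were chosen with earlier results of these data known, so their shares are not tested against that background. Me1, the NADPH-making malic enzyme, had 7.03, 7.12 and 7.23 with DB2313, against 8.75, 8.54 and 8.45 with vehicle, a difference of -1.46 (SE 0.0952, limma adjusted p = 0.000755). Lpl, the lipase that frees fatty acids from lipoproteins, had 6.15, 6.49 and 6.22 with DB2313, against 7.08, 7.24 and 7.35 with vehicle (difference -0.94, adjusted p = 0.00724). Both genes had all DB2313 arrays below all vehicle arrays and passed with any 1 array left out.

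Smaller falls in that list were those of Plin2, a coat protein of lipid droplets (-0.45, adjusted p = 0.0402), and of the fatty acid-binding protein gene Fabp5 (-0.35, adjusted p = 0.0392), which was named after its values were seen. Fabp5 had -0.19 as the mean of its rows and -0.23 with the offset of 32, and did not pass as that mean (0.244) or with median centring (0.0530). Olr1, a receptor for oxidised lipoprotein, went the other way, at 11.32, 11.39 and 11.31 with DB2313, against 10.56, 10.67 and 10.59 with vehicle, a difference of 0.73 (adjusted p = 0.00222). Named outside the rule, the textbook targets Cd36 (interval -0.36 to 0.21) and Fabp4 (interval -0.28 to 0.25) were below the dim level in both groups, while Angptl4 (interval -0.31 to 0.11) and Cpt1a (interval -0.05 to 0.29) were above it. The 29 members that did not pass ranged from -0.30 to 0.15.

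Of 8 adipocyte markers, 7 were measured and 3 were above the dim level in either group. The summed linear signal of these 7 was 309 to 315 on the DB2313 arrays and 334 to 381 on the vehicle arrays. The 3 above the dim level were Lep, Lipe and Plin1, each in both groups. Adipoq and Fabp4, both below that level, were near the bottom of the scale. Adipoq had 3.16 with DB2313 and 3.39 with vehicle, and Fabp4 had 2.94 with DB2313 and 2.95 with vehicle. Of the 7, 3 had an unadjusted p under 0.05 in limma, all lower with DB2313, where 12.7% of all genes had such a p. These were Lep, Retn (-0.18) and Adipoq (-0.23). Lep alone passed the adjusted threshold, at 7.25 with DB2313 and 7.68 with vehicle (difference -0.44, adjusted p = 0.0455). It passed in 1 of the 6 settings with an array left out, that without vehicle replicate 1. Of 9 measured macrophage markers 2 were above the dim level and 0 passed (limma; 1 had an unadjusted p under 0.05), with sums of 191 to 203 on DB2313 arrays and 190 to 203 on vehicle arrays. Their part in the fall of Pparg was not tested. Of the line's own 9 myeloid markers, 8 were above the dim level in both groups, 1 rose and 8 did not pass. Gfi1, a transcriptional repressor of granulocyte development, rose, at 10.79 with DB2313 and 10.25 with vehicle (difference 0.54, adjusted p = 0.00464), and passed with any 1 array left out. Mpo, the myeloperoxidase gene, had 10.12, 10.33 and 10.10 with DB2313, against 9.87, 10.06 and 9.75 with vehicle, without overlap (difference 0.29, adjusted p = 0.281). Lyz2 went the other way, at 11.99, 11.94 and 12.02 with DB2313, against 12.17, 12.03 and 12.13 with vehicle. These groups also did not overlap, and the difference of -0.13 did not pass (limma adjusted p = 0.490). The neutrophil elastase gene Elane had 13.05 in both groups. Of the 9 myeloid markers, 4 had a difference below 0. None of 6 measured fibroblast, 4 T cell, 4 B cell and 2 erythroid markers passed (limma; 1, 0, 0 and 1 had an unadjusted p under 0.05).

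Coregulators bridge nuclear receptors to chromatin. Of 25 coactivators, Ppargc1b, which boosts mitochondrial genes with oestrogen-related receptors and PPARs, rose, and 24 did not pass. It had 7.04, 6.92 and 7.02 with DB2313, against 6.64, 6.56 and 6.70 with vehicle (difference 0.36, adjusted p = 0.0455, and 0.0820 after quantile normalization). Of 17 measured corepressors, Nrip1, the ligand-dependent corepressor RIP140, rose (0.39, adjusted p = 0.0283), and Sap30, a subunit of the SIN3 deacetylase complex, fell (-0.66, adjusted p = 0.0177). The medians of both lists were 0.02 and 0.04, and 4% of coactivators and 11.8% of corepressors passed, beside 1.81% of all genes. None of 12 measured chaperones of steroid receptors passed (limma; 0 had an unadjusted p under 0.05), the smallest p being those of Hspa4 (-0.15) and Hspa8 (-0.13).

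In the retinoid list, 2 of 23 measured genes fell, Dhrs3, which reduces retinal back to retinol (-0.59, adjusted p = 0.0150), and the transglutaminase gene Tgm2 (-0.88, adjusted p = 0.0218), with a median of -0.07. Cyp26a1, encoding the retinoic acid hydroxylase, had 4.98 with DB2313 and 4.57 with vehicle and did not pass (adjusted p = 0.115). Of 23 glucocorticoid receptor targets, Anxa1, encoding annexin A1, rose (0.63, adjusted p = 0.0123), and Tgm2 and the glutamine synthetase gene Glul (-0.35, adjusted p = 0.0385) fell. Glul had -0.20 as the mean of its rows (adjusted p = 0.249) and did not pass with median centring (0.0589). The median of that list was -0.01, and Fkbp5, a classical glucocorticoid target named outside the rule, had an interval of -0.10 to 0.23. The shares passing were 8.70% of the retinoid list and 13.0% of the glucocorticoid list, beside 1.81% of all genes.

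In the thyroid hormone list, Me1 and Thrsp, a lipogenic gene (-0.39, adjusted p = 0.0203), fell among 12 measured, with a median of 0.02. In the vitamin D list 1 of 13 fell, Fbp1, encoding the gluconeogenic enzyme fructose bisphosphatase. It had 3.93, 4.30 and 4.14 with DB2313, against 5.51, 5.33 and 5.37 with vehicle, a difference of -1.28 (adjusted p = 0.00165), or -0.59 with the offset of 32 (still past the threshold). Its DB2313 values lay below the dim level. By the vehicle mean against that level, with no allowance for spread between arrays, Fbp1 was at least 1.43-fold lower. That list's median was -0.0055. Of 19 measured LXR targets Lpl alone fell, with a median of -0.04. The shares passing were 16.7%, 7.69% and 5.26% of the thyroid hormone, vitamin D and LXR lists, beside 1.81% of all genes. Abcg1, the cholesterol exporter, had 7.17 with DB2313 and 6.66 with vehicle and did not pass (interval 0.10 to 0.91, adjusted p = 0.271).

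None of 17 measured clock genes of the REV-ERB and ROR loop passed, and the 2 with the smallest p were Usp2 (0.29) and Csnk1e (-0.22). In that list the limma test gave 6 of the 17 genes an unadjusted p under 0.05, in both directions, where 12.7% of all genes had such a p. The list median was -0.10. Usp2 passed with a trended prior (adjusted p = 0.0405), but in no fit with 1 array left out (0.151 to 0.405). Among 22 measured immediate early genes, which share fast induction with the NR4A receptors, Fosl2 fell (-0.91, adjusted p = 0.00194), with a median of -0.06. Fos had 7.91, 7.57 and 7.03 with DB2313, against 6.43, 6.74 and 5.53 with vehicle. These groups did not overlap, the spread within each was wide, and replicate 3 was the lowest array in both. In the limma fit, which has no replicate term, the difference of 1.27 did not pass (interval 0.51 to 2.03, adjusted p = 0.139).

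**Figure D4:**
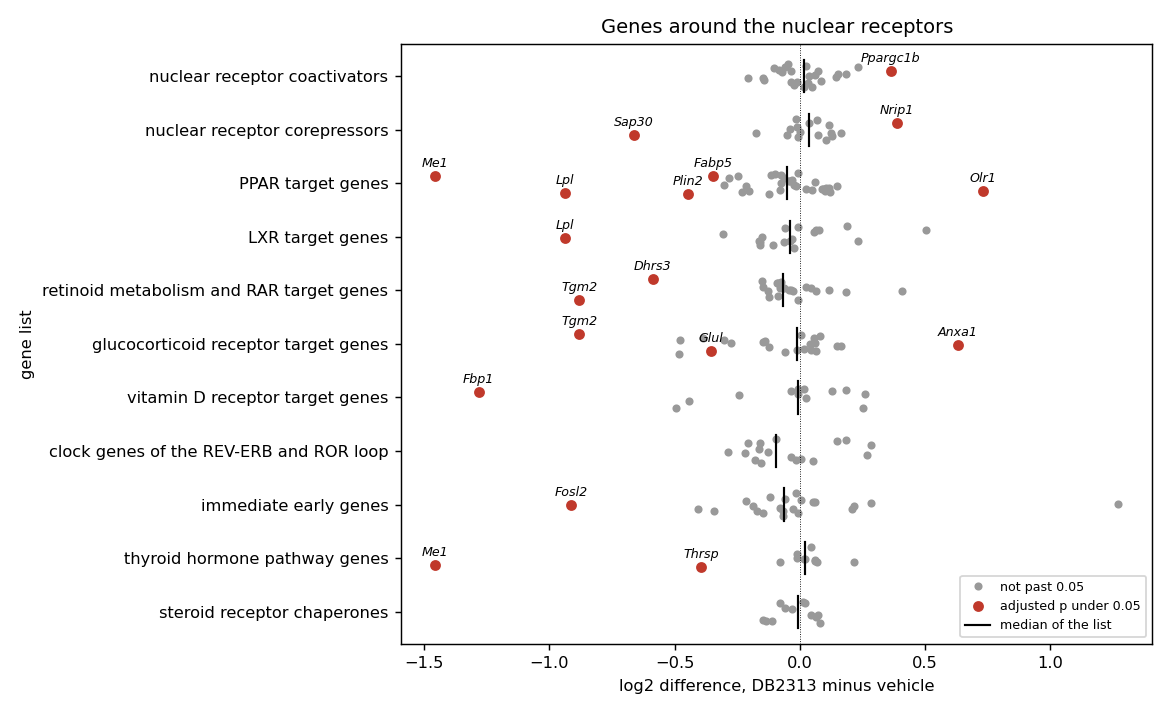
Log2 difference of DB2313 minus vehicle (x axis) for every measured gene of 11 lists around the nuclear receptors (rows), with genes past an adjusted p of 0.05 in red and named, other genes in grey, and the list median as a black bar. List medians lie between -0.10 and 0.04, and the lowest point is Me1 at -1.46.

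Spi1, the gene of PU.1 itself, had 6.52, 6.49 and 6.50 with DB2313, against 6.79, 6.88 and 6.95 with vehicle (difference -0.37, adjusted p = 0.0342). Spi1, Plin2, Fabp5, Ppargc1b, Nrip1, Thrsp and Glul lost the call in each of the 6 fits on 5 arrays (adjusted p 0.0621 to 0.169). Anxa1 did not pass without DB2313 replicate 1, DB2313 replicate 3 or vehicle replicate 2, and Dhrs3 passed only without vehicle replicate 3. Tgm2 did not pass without DB2313 replicates 1 or 3 or vehicle replicates 1 or 2, nor Sap30 without DB2313 replicate 3 or any vehicle replicate. Pparg, Me1, Lpl, Olr1, Fbp1 and Fosl2 passed in all 6 of these settings, with Pparg between -2.05 and -1.87.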

How the data were processed

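Total RNA of 6 samples was labelled with biotin and hybridised to Affymetrix arrays, per the labels' protocols. Affymetrix Expression Console was used, per the submitters' processing notes. How background, probe sets and scale were handled is not given in the sources used here. Values are log2 in the table as deposited, judged from their range. Array medians over genes lay between 5.15 and 5.21, and the number of arrays limits the precision.

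Of 41345 rows, 23521 had 1 symbol in the platform annotation, 1814 had several and 16010 were unnamed here. Identifiers of 23328 rows matched RefSeq (GRCm38.p6). The brightest row per gene left 22180 genes. DB2313 was compared with vehicle by limma 3.58.1 (R 4.3.3, lmFit and eBayes, 2-sided) with Benjamini-Hochberg adjustment over all genes. The code was also run on simulated normal values, independent between arrays, with variances drawn from limma's own fitted prior. That run cannot show how the test behaves where arrays share a batch. Promoter windows are RefSeq's.

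The rule for named genes gave array values for the PPAR and RXR genes, members with an unadjusted p under 0.05 and the 10 members with the highest mean signal, and named up to 4 passing genes per list, or else the 2 with the smallest p. Members, 11 gene lists and marker lists were chosen with earlier results of these data known. Alternatives covered signal filters, normalization, an offset, the prior, a replicate block, rows per gene, the dim level and leaving out arrays.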

Additional observations from a re-analysis of the deposited data

How the results depend on the processing

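Pparg kept its direction and its call under all 15 alternatives, with adjusted p from 2.03e-06 to 0.00467. The number of receptors past the threshold was 1 and became 2 under both signal filters and 3 with the offset of 32 or a trended and robust prior, through Nr4a2 and Nr2c2. Over all genes the count of 401 became 799 with genes below the median left out, 830 with the offset, 920 with the trended prior, and 136 to 187 with 1 array left out. The cause of these shifts was not tested. Fewer genes entered the fit under the signal filters and fewer arrays where 1 was left out, whereas the offset and the trended prior kept all of them. Receptors above the dim level became 17 with DB2313 and 18 with vehicle at the 0.99 quantile. With 1 array left out, small differences changed sign for Nr1d2 (-0.196 to 0.0343), Ppard (-0.0211 to 0.12), Nr1h3 (-0.0716 to 0.00739), Esr1 (-0.0966 to 0.0582) and Esrra (-0.0571 to 0.0106). None of these was called.

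Replicate numbers are shared between the groups. Deviations of same-numbered arrays from their group means had correlations of 0.02, 0.08 and 0.0083 across genes. Those of differently numbered arrays ran from -0.07 to 0.05. A correlation over all genes cannot tell whether some genes shared a culture or handling effect by number. Among immediate early genes, replicate 3 was the lowest array in both groups for Fosb, Dusp1, Zfp36, Jun and Egr1 as well as Fos. Fosb had 6.81, 6.57 and 5.81 with DB2313, against 7.21, 6.92 and 6.08 with vehicle. Junb and Klf6 did not have this order. The cause of this shared order was not tested. With the replicate block 190 genes passed, and Pparg had an adjusted p of 0.00265. Each of Ppargc1b, Nrip1, Plin2, Fabp5, Glul, Thrsp, Lep and Spi1 did not pass under the block. Signal over background was not measured, which limits what can be said of dim receptors.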
